A study of Mus musculus with 46 samples.

Results

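Whether a neuron releases GABA or glutamate depends on a small set of genes, and 5 of them were followed here in AgRP and POMC neurons of the arcuate nucleus: Gad1, Gad2, Slc32a1, Abat and Slc17a6. They were taken by symbol from the 31854 genes of the RNA count table. Around each gene, every ATAC peak that overlapped the 50 kb on either side of its start was taken as well, 36 of 67472 peaks in the table of AgRP-positive and AgRP-negative nuclei and 54 of 123721 peaks in the table of fed, fasted and leptin-treated AgRP neurons.

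All mice were males on the C57BL/6J background, and those used for TRAP and ATAC-seq were 6 to 11 weeks old. TRAP and ATAC mice carried the NuTRAP allele, a Cre-dependent transgene giving a GFP-tagged L10a ribosomal protein and an mCherry-tagged nuclear envelope protein. Agrp-IRES-Cre (NuTRAP AgRP) or Pomc-IRES-Cre (NuTRAP Pomc) switched it on. Translating ribosome affinity purification (TRAP), which pulls down the tagged ribosomes with their mRNA, gave AgRP neuron RNA from 3 fed, 4 fasted and 4 leptin-treated samples and POMC neuron RNA from 2 samples per state. Fed mice ate ad libitum and received PBS, fasted mice went without food for 18 to 20 h and received PBS, and leptin mice were fasted likewise and received 5 mg/kg leptin by intraperitoneal injection, all 3 h before collection. Nuclei for ATAC-seq, which counts transposase insertions in open chromatin, were sorted by GFP: 2 samples of AgRP neuron nuclei per state, and 2 of AgRP-positive and 2 of AgRP-negative nuclei from fed, untreated mice, both fractions being sorted from shared pools. A further mouse model, IRF3-2D, in which Agrp-IRES-Cre switches on a constitutively active form of the transcription factor IRF3 in AgRP neurons, gave the IRF3 peak list used at the end. Each TRAP and ATAC sample pooled 4 arcuate nuclei. These samples were therefore pools of animals, the tag followed every cell in which the Cre had acted, and the AgRP-negative fraction, labelled as non-AgRP neurons, held whatever arcuate nuclei lacked GFP. Gene counts summed to 25581041 to 54511107 per AgRP library (median 35871366) and 30704075 to 53217053 per POMC library. Peak counts summed to 8685497 to 11177208 in the AgRP-positive and AgRP-negative libraries and to 8263234 to 17190963 in the libraries of the 3 states.

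GABA, the main inhibitory transmitter, is made from glutamate by the glutamic acid decarboxylases GAD67, encoded by Gad1, and GAD65, encoded by Gad2. The vesicular transporter VGAT, encoded by Slc32a1, loads GABA into synaptic vesicles, and GABA transaminase, encoded by Abat, breaks it down in neurons and glia. Slc17a6 encodes VGLUT2, which loads glutamate into vesicles and is the main vesicular glutamate transporter of the hypothalamus. AgRP neurons are known as GABA-releasing neurons that drive feeding, whereas POMC neurons are known to be mixed, with glutamate, GABA or neither as their fast transmitter.

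The 4 stretches below are shown because the chromatin results turn on them: the 250 bases before the RefSeq start of Slc32a1 (chr2:158610508-158610757) and of the first Slc17a6 start (chr7:51621580-51621829), and the central 300 bases of the 2 peaks with the largest called fasting increases near Slc32a1 (chr2:158578357-158578656) and Gad2 (chr2:22652032-22652331). All are in GRCm38 (mm10), plus strand, and come from RefSeq's assembly. Capitals mark every match, on either strand, to the AP-1 letters TGANTCA, the homeodomain core TAATTA, the TATA box TATAAA, the GC box GGGCGG or the CRE core TGACGT. These letter patterns do not overlap one another in the printed runs.
Slc32a1 promoter: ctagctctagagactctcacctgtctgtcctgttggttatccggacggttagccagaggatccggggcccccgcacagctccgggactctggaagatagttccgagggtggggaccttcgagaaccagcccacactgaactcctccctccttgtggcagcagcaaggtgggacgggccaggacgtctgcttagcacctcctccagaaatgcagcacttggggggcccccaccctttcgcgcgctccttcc
Slc17a6 promoter: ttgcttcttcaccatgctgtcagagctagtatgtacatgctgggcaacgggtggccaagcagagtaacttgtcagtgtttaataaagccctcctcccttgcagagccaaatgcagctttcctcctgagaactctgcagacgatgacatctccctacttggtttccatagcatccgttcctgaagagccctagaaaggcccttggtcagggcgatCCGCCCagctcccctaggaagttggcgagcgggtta
Slc32a1 upstream peak: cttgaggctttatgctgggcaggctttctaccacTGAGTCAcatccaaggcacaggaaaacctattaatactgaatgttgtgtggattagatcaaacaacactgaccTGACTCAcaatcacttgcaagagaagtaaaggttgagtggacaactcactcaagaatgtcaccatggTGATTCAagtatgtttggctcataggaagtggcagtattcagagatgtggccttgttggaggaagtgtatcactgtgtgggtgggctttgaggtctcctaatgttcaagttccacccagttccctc
Gad2 intronic peak: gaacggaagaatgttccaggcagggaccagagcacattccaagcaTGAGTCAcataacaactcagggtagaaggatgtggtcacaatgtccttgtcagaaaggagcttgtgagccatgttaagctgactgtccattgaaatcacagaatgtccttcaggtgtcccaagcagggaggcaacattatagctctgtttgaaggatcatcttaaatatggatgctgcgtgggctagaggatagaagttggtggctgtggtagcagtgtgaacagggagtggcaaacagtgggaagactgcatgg

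The Slc32a1 promoter held none of the 5 patterns, and the Slc17a6 promoter held 1 GC box, which 32.7% of 32851 promoter runs of the same length also held. The Slc32a1 upstream peak held 3 AP-1 matches. Among the central 300 bases of 123665 peaks, 31.2% held at least 1 such match and 0.687% held at least 3. The Gad2 intronic peak held 1. A match is a description of letters, and no binding was measured by it.

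Both lines were first checked against their cells' own genes. The summed level of 7 AgRP neuron markers was 1671 to 6465 CPM (counts in proportion to the library total, which was scaled by the trimmed mean of M values, TMM) in the 11 AgRP libraries and 111 to 202 CPM in the 6 POMC libraries. The summed level of 5 POMC neuron markers was 164 to 232 CPM in AgRP and 1690 to 3110 CPM in POMC libraries. Every library thus matched the neuron its label names.

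Libraries with 1 set of numbers stood apart from the rest, and the transmitter genes moved with them. In the AgRP libraries numbered 4 the 9 astrocyte markers summed to 21462 to 27134 CPM, against 3119 to 4875 CPM in the other 8. In the POMC libraries numbered 2 they summed to 24838 to 28521 CPM, against 6323 to 7214 CPM in the other 3. Slc1a2, the main astrocyte glutamate transporter, made up most of that, at 20180 to 25888 CPM in AgRP libraries numbered 4 and 23326 to 26971 CPM in POMC libraries numbered 2. Without Slc1a2 the sums were 1246 to 1335 CPM against 733 to 1025 CPM in AgRP, and 1512 to 1645 CPM against 1010 to 1149 CPM in POMC. Of the 9 markers, 4 in AgRP and 6 in POMC were higher in the numbered libraries with no overlap, and none was at 0. Gfap, the classical astrocyte filament gene, overlapped at 34.7 to 46.4 CPM against 29.9 to 53.4 CPM in AgRP libraries. Agt, Aldh1l1 and Aldoc overlapped there too, with lower means in the libraries numbered 4 (ratios of means 0.813, 0.917 and 0.997). In POMC libraries every marker had a higher mean in those numbered 2. The summed levels of the other glial lists also moved with this split, microglia only in part. The 9 oligodendrocyte markers summed to 821 to 906 CPM in AgRP libraries numbered 4 against 521 to 817 CPM, and to 865 to 1086 CPM in POMC libraries numbered 2 against 491 to 604 CPM. The 7 tanycyte and ependymal markers summed to 92.1 to 133 CPM against 37.9 to 60.7 CPM in AgRP and to 117 to 134 CPM against 98.8 to 114 CPM in POMC libraries. Summed, the 8 microglia markers overlapped in AgRP libraries, at 39.8 to 44.6 CPM against 19.5 to 44.1 CPM. They were apart in POMC libraries, at 45.5 to 57.3 CPM against 26.2 to 43.1 CPM. Single genes made up much of the tanycyte and microglia sums. Col23a1 alone was 56.1 to 98.2 CPM in AgRP libraries numbered 4 and at most 28.1 CPM in the other 8. In POMC libraries Cx3cr1 alone was 28.1 to 31.9 CPM in those numbered 2 against 15.6 to 26.1 CPM. Sums without these genes are not given. The labels do not say what these libraries share. The levels of Abat, Gad2, Slc32a1 and Slc17a6 are given with and without them. So are the transmitter genes' differences between the neurons over the 3 states, their calls between states in AgRP neurons and the ratio of Slc32a1 to Slc17a6. The state comparisons in POMC neurons, the wider gene lists, the markers of other neurons and the correlations are given only with them. The same holds for each gene's fasting and leptin effects set against each other between the neurons.

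Abat and Gad2 followed this split. Abat stood at 1370, 1467 and 1391 CPM in the AgRP libraries numbered 4 (fed, fasted, leptin) and at 549 to 765 CPM in the other 8. In POMC neurons it stood at 1542 to 1602 CPM in the libraries numbered 2 and 963 to 1053 CPM in those numbered 1. Gad2 stood at 1040 to 1100 CPM against 714 to 799 CPM in AgRP and at 1094 to 1458 CPM against 607 to 831 CPM in POMC libraries. Neither gene's ranges overlapped in either line. The vesicular transporter genes overlapped in AgRP neurons, Slc32a1 at 218 to 265 CPM against 226 to 300.3 CPM and Slc17a6 at 135 to 241 CPM against 154 to 274 CPM. In POMC neurons they did not, with Slc32a1 at 170 to 211 CPM in the libraries numbered 2 against 84.7 to 167 CPM, and Slc17a6 at 298 to 341 CPM against 272 to 284 CPM. Gad1 overlapped in both lines. How far glial RNA had a part in these levels was not tested.

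**Figure D1:**
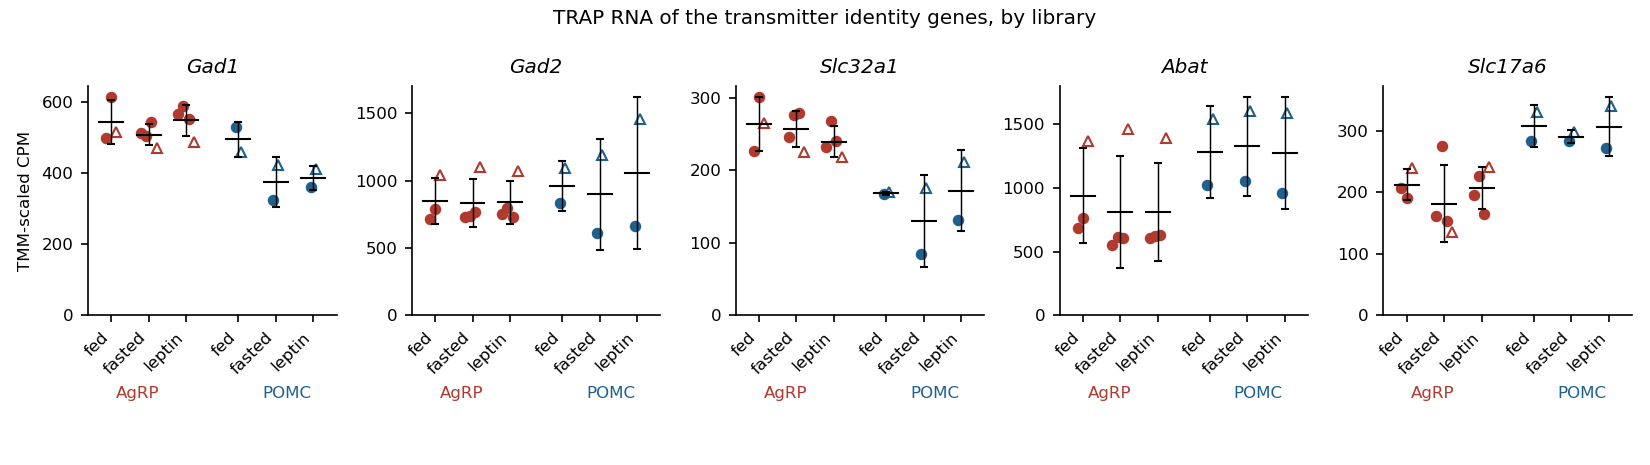
TRAP RNA of the 5 genes in each library, as TMM-scaled CPM, by neuron and state; bars are means with SD, and open triangles mark AgRP libraries numbered 4 and POMC libraries numbered 2. The triangles lie above all other points of their line for Abat and Gad2, while Slc32a1 lies higher in AgRP (218 to 300.3 CPM) than in POMC libraries (84.7 to 211 CPM).

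All 5 genes were abundant messages in the AgRP TRAP libraries. How much of each came from untagged cells was not measured. To set genes side by side, CPM was divided by the gene's exon length in the count table. Gad2 had the highest mean level, 122 ± 22.0 CPM per kb (SD, n = 11), above 97.9% of the 13435 genes measured. Abat followed at 107 ± 46.3 CPM per kb, Slc32a1 at 89.9 ± 9.50, Gad1 at 74.1 ± 6.21 and Slc17a6 at 46.1 ± 10.0 (above 91.1% of genes). Each gene's range overlapped its neighbour's down to Gad1. Between Gad1 (65.6 to 85.6 CPM per kb) and Slc17a6 (31.3 to 63.5 CPM per kb) there was no overlap, so Slc17a6, the glutamate gene, was lowest per length in all 11 AgRP libraries. The place of Abat rested on the libraries numbered 4. In the other 8 AgRP libraries Abat was at 80.1 ± 8.17 CPM per kb (SD), wholly below Gad2 at 110 ± 4.44 and with a mean under that of Slc32a1 at 92.0 ± 9.32, whose range it overlapped.

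The order differed in POMC neurons. Abat was highest there, 164 ± 39.2 CPM per kb (SD, n = 6), followed by Gad2 at 142 ± 48.2, Slc17a6 at 69.8 ± 6.50, Gad1 at 58.3 ± 10.1 and Slc32a1 at 55.7 ± 15.4 CPM per kb. Abat overlapped Gad2, and Slc17a6, Gad1 and Slc32a1 overlapped one another, so their order is not set by these libraries. In the 3 POMC libraries numbered 1 the means stood in the same order, but Abat (122 to 133 CPM per kb) no longer overlapped Gad2 (88.3 to 121 CPM per kb), and Slc17a6 (63.1 to 65.7) no longer overlapped Slc32a1 (30.2 to 59.5 CPM per kb). Lengths in the table sum all exons of a gene, so levels per kb depend on the annotation.

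The values of each transmitter gene of AgRP neurons overlapped between fed, fasted and leptin-treated mice. Slc32a1 stood at 226, 300.3 and 265 CPM in fed libraries, at 246, 275, 278 and 226 CPM in fasted libraries and at 231, 268, 239 and 218 CPM in leptin libraries. The 3 states overlapped, though leptin lay below fasted in every pair of libraries of the same number. Gad1 stood at 498, 614 and 516 CPM in fed and 513, 503, 543 and 471 CPM in fasted libraries. In leptin libraries it stood at 564, 588, 552 and 488 CPM, again overlapping but above fasted in every same-numbered pair.

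Slc17a6, the glutamate transporter gene, ranged more widely. It stood at 208, 190 and 240 CPM in fed, 162, 274, 154 and 135 CPM in fasted and 195, 226, 164 and 241 CPM in leptin libraries. The highest and the lowest of the 11 AgRP values were both in fasted libraries. Within same-numbered pairs fasted always lay below fed.

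Of the 5 genes none was called in AgRP neurons for fasted against fed, where 3.89% of 13401 genes were called by edgeR's quasi-likelihood test (a gene is called here at a Benjamini-Hochberg FDR under 0.05 with a log2 fold change beyond 0.5 either way). For leptin against fasted 1.83% of genes and for leptin against fed 5.48% of genes were called, and again none of the 5. The replicate numbers pair these libraries, and with the number as a block 930, 390 and 1148 genes were called in the 3 comparisons and still none of the 5. Without the block, fasting changed Gad1 by -0.09 on the log2 scale (95% interval -0.32 to 0.14), Slc32a1 by -0.03 (-0.29 to 0.22) and Gad2 by -0.01 (-0.49 to 0.47), none of them past the test. The interval for Slc17a6 was -0.72 to 0.29 around -0.22, and that for Abat -1.17 to 0.78 around -0.20. Without the AgRP libraries numbered 4 none of the 5 was called either, in any of the 3 comparisons (Abat -0.31, edgeR FDR 0.0937, for fasted against fed). With the block the differences were -0.39 ± 0.14 (SE, edgeR FDR 0.0668) for Slc17a6 and -0.17 ± 0.08 (FDR 0.145) for Abat. Without it, leptin against fasted gave log2 differences of -0.10 for Slc32a1, 0.00 for Abat, 0.01 for Gad2, 0.11 for Gad1 and 0.19 for Slc17a6. Leptin against fed gave -0.20 for Abat, -0.13 for Slc32a1, -0.03 for Slc17a6, -0.00 for Gad2 and 0.02 for Gad1. Each measured message is total TRAP RNA, with glial markers present in every library. In it, fewer cells of a type and less RNA per cell cannot be told apart.

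POMC neurons had 2 libraries per state and no gene was called in any of their 3 state comparisons (0% of 13412 by edgeR). For fasted against fed, leptin against fasted and leptin against fed, 282, 151 and 282 genes had an unadjusted p under 0.05. In the same order DESeq2 called 3, 10 and 7. With the library number as a block edgeR called 3, 8 and 44, none of the 5 genes among them. Gad1 showed the clearest separation. It stood at 529 and 460 CPM in fed, 324 and 423 CPM in fasted and 361 and 410 CPM in leptin libraries, so that both fasted and both leptin values lay below the fed ones. The log2 difference was -0.40 for fasted against fed (edgeR FDR 1.00, 95% interval -0.85 to 0.05). Slc32a1 stood at 167 and 170 CPM in fed, 84.7 and 175 CPM in fasted and 132 and 211 CPM in leptin POMC libraries, with the lowest value of all 17 libraries in fasted replicate 1. For fasted against fed the log2 differences of the others were -0.38 (Slc32a1), -0.10 (Gad2), -0.08 (Slc17a6) and 0.05 (Abat). For leptin against fasted they were 0.39 (Slc32a1), 0.23 (Gad2), 0.07 (Slc17a6), 0.04 (Gad1) and -0.07 (Abat), and for leptin against fed -0.37 (Gad1), 0.13 (Gad2), 0.02 (Slc32a1), -0.01 (Slc17a6) and -0.02 (Abat). The effects of fasting and of leptin were also set against each other between the neurons, in a fit of all 17 libraries. Without those that stood apart, the fasted Slc32a1 difference between the neurons grew while the fed one changed little, as given below. The Slc32a1 fasting effect therefore depends on these libraries. No gene of the 5 was called, where 0.164% of genes were called for the fasting effect and 0.0819% for the leptin effect. The difference between the neurons in the fasting effect was 0.33 for Slc32a1, 0.31 for Gad1, 0.07 for Gad2, -0.15 for Slc17a6 and -0.27 for Abat, and in the leptin effect -0.50, 0.07, -0.23, 0.11 and 0.06 in the same order.

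The 2 neurons differed from each other in the genes that load the vesicles. Slc32a1 was higher in AgRP neurons and Slc17a6 was lower, each when the 3 states were averaged with equal weight. All 11 AgRP values of Slc32a1 (218 to 300.3 CPM, median 246) lay above all 6 POMC values (84.7 to 211 CPM, median 168). The log2 difference was 0.71 ± 0.14 (SE, edgeR FDR 0.00176), a 1.63-fold higher level in AgRP neurons. Slc17a6 was 135 to 274 CPM (median 195) in AgRP and 272 to 341 CPM (median 291) in POMC libraries. The ranges met only through AgRP fasted replicate 2 and POMC leptin replicate 1, and the log2 difference was -0.59 ± 0.14 (SE, edgeR FDR 0.00435). Both calls held in each of 21 alternatives, and 13.0% of 13435 genes were called in this comparison. The average over states was added after the data had been seen, and the fit treats libraries of 1 number in different states as independent, though AgRP libraries of 1 number deviate together. The lines differ in their Cre driver as well as in the neuron, and line and neuron cannot be told apart.

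Within single states the same pair of genes leaned the same way with fewer calls. Slc32a1 was higher by 0.65 ± 0.25 in fed libraries (edgeR FDR 0.232, 3.21% of genes called), by 0.98 ± 0.24 in fasted libraries (FDR 0.0136, called, 13.3% of genes called) and by 0.48 ± 0.24 in leptin libraries (FDR 0.191, 11.1% of genes called). AgRP and POMC values did not overlap in any of the 3 states. The call in fasted libraries rested on POMC fasted replicate 1, without which the difference was 0.55 (FDR 0.127). Slc17a6 was lower by log2 differences of -0.53 (FDR 0.366), -0.68 (FDR 0.0563) and -0.57 (FDR 0.116) in fed, fasted and leptin libraries, with no overlap in any state and no call. Without AgRP fasted replicate 2 the fasted difference was -0.95 (FDR 0.00202). Leaving out the libraries that stood apart leaves a single POMC library per state, so only the sizes of these differences are given. Slc32a1 was then higher by 0.65 in fed, 1.63 in fasted and 0.89 in leptin libraries. Slc17a6 differed by -0.52, -0.54 and -0.49.

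The decarboxylases and the transaminase were less clear. Gad1 was higher in AgRP neurons by 0.51 ± 0.14 in leptin libraries (edgeR FDR 0.0239, called), a call that 6 of 11 alternatives lost. Its difference was 0.44 in fasted libraries (FDR 0.0380) and 0.36 over the 3 states (FDR 0.00335), both under the fold needed for a call, and 0.13 in fed libraries (FDR 0.808). Gad2 differed by -0.21 over the 3 states (FDR 0.389), with a 95% interval from -0.61 to 0.19. Abat differed by -0.61 (FDR 0.0900), a lower level in AgRP neurons that did not pass the test. In fed, fasted and leptin libraries Gad2 differed by -0.18, -0.11 and -0.34 and Abat by -0.45, -0.72 and -0.65, with no call. Without AgRP fasted replicate 4 the fasted Abat difference was -1.17 (edgeR FDR 0.0436) and was called.

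The libraries that stood apart made up 3 of 11 AgRP and 3 of 6 POMC libraries, so they bear unevenly on this comparison. With them left out, Slc32a1 differed by 1.06 (edgeR FDR 9.27e-05) and Slc17a6 by -0.52 (FDR 0.0413), both still called. Abat then differed by -0.67 (FDR 0.000200) and was called lower in AgRP neurons, Gad1 differed by 0.45 (FDR 0.00286) and Gad2 by 0.10 (FDR 0.309). The direction for Gad2 turned with these libraries. Only a single POMC library per state then remained, so the spread in this fit came from the AgRP libraries. By state, with sizes only, Gad1 differed by 0.66 in fasted and 0.64 in leptin libraries and Abat by -0.86 and -0.65.

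Several markers of neighbouring glutamate neurons were, like Slc17a6, lower in AgRP than in POMC libraries. The ventromedial hypothalamus, which adjoins the arcuate nucleus, is largely made of Slc17a6 neurons. Of its 6 markers Nr5a1, a defining transcription factor, was 7.80 to 16.3 CPM in AgRP and 22.4 to 30.7 CPM in POMC libraries, and Fezf1, another, was 6.45 to 13.2 CPM against 13.7 to 17.4 CPM. Gpr149 (6.73 to 10.2 CPM against 14.5 to 19.3 CPM) and Sox14 (1.14 to 2.33 CPM against 3.09 to 3.87 CPM) were also apart. Adcyap1 overlapped (34.4 to 59.4 CPM against 35.0 to 79.0 CPM). Over all states Nptx2 leaned the other way, with medians of 165 CPM in AgRP and 91.9 CPM in POMC libraries. In fed libraries Nptx2 did not, at 69.9 to 101 CPM in AgRP against 93.1 and 146 CPM in POMC neurons. It was 103 to 166 CPM against 56.4 and 86.6 CPM in fasted libraries. With leptin it was 216 to 576 CPM against 90.7 and 133 CPM. Summed, the 6 were 161 to 645 CPM in AgRP and 164 to 250 CPM in POMC libraries. Nptx2, a pentraxin with wider expression, was the most abundant of them in every library, and without it the sums were 66.6 to 98.4 CPM in AgRP and 98.7 to 143 CPM in POMC libraries. None of the 6 was at 0. Their part in the Slc17a6 difference was not tested. Markers of other arcuate neurons went in both directions. Pdyn, the most abundant in POMC libraries, was 62.6 to 120 CPM in AgRP and 233 to 502 CPM in POMC libraries, whereas Sst was 46.0 to 151 CPM in AgRP and 23.2 to 40.2 CPM in POMC libraries. Gal, Tac2 and Crabp1 were higher in POMC libraries with no overlap, the other measured markers overlapped, and without Pdyn the sums were 129 to 261 CPM and 132 to 179 CPM.

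The balance of the vesicular transporters was read within each library as the log2 ratio of Slc32a1 to Slc17a6 counts, which no scaling between libraries can move. It was 0.13, 0.66 and 0.15 in fed, 0.60, 0.00, 0.86 and 0.74 in fasted and 0.24, 0.24, 0.55 and -0.14 in leptin AgRP libraries. In POMC libraries it was -0.77 and -0.97 in fed, -1.74 and -0.77 in fasted and -1.05 and -0.69 in leptin samples. Every AgRP library lay above every POMC library. The means were 0.37 ± 0.33 (SD, n = 11) and -1.0 ± 0.39 (SD, n = 6), a difference of 1.36 log2 units (exact two-sided permutation test over 12376 regroupings, p = 8.1e-05, the smallest they can give). That test takes each library as independent. With the mean over states of the libraries of each number as 1 value, 4 AgRP against 2 POMC values, the difference was 1.34, and the exact two-sided permutation test over 15 regroupings gave p = 0.067, the smallest that design allows. Leaving out any 1 library gave differences of 1.22 to 1.42, fed libraries alone gave 1.18, and leaving out the libraries that stood apart gave 1.60. The states overlapped within each line. The ratio is made of the 2 genes tested above and is no separate evidence for them.

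**Figure D2:**
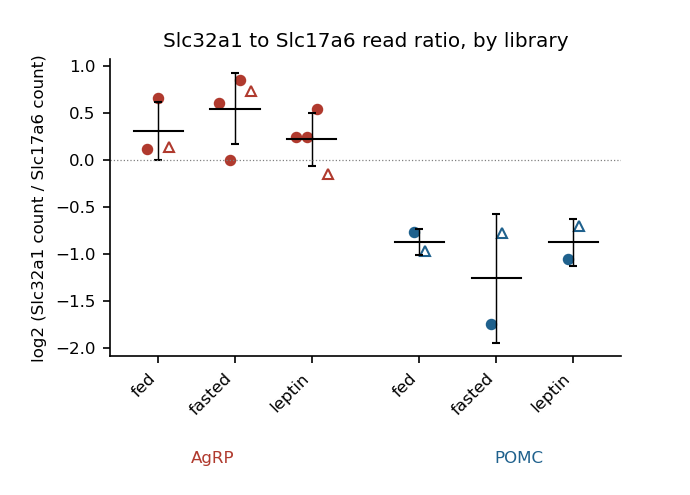
Log2 ratio of Slc32a1 to Slc17a6 counts in each of the 17 TRAP libraries by neuron and state, with means and SD; open triangles mark AgRP libraries numbered 4 and POMC libraries numbered 2. The 11 AgRP values (-0.14 to 0.86) all lie above the 6 POMC values (-1.74 to -0.69), with triangles among both.

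Around these genes, 71 genes of GABA and glutamate handling and of other transmitters, the 5 included, were read from 10 lists, of which 61 were tested in AgRP neurons. For fasted against fed 3 were called (4.92%, beside 3.89% of all genes). Slc17a8, encoding VGLUT3, fell by 1.08 on the log2 scale (edgeR FDR 0.0265) and Slc38a3, a glutamine transporter, fell by 0.54 (FDR 0.0425). Slc18a1, a vesicular monoamine transporter, rose by 1.10 (FDR 0.0202). Slc17a8 (1.29 to 4.25 CPM) and Slc18a1 (2.20 to 7.24 CPM) were near the lower limit of measurement. The same 3 genes were called for leptin against fed, which shares the fed libraries, at -1.21, -0.58 and 0.84. None of the 61 was called for leptin against fasted, and none of 62 in any POMC comparison of states. None of the 14 GABA-A receptor subunits, 2 GABA-B subunits, 5 synapse scaffold genes or 5 excitatory amino acid transporters was called for fasted against fed in either neuron.

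Between the neurons 13 of the 61 were called over the 3 states (21.3%, beside 13.0% of all genes), 5 higher and 8 lower in AgRP neurons and Slc32a1 and Slc17a6 among them, beside 6.51% of all genes called higher and 6.45% called lower. The vesicular monoamine transporter Slc18a2 (VMAT2) was lower, 27.6 to 43.7 CPM in AgRP and 103 to 161 CPM in POMC libraries (log2 difference -1.85, edgeR FDR 1.61e-07), as was Ddc, the decarboxylase that makes dopamine and serotonin (-0.69). The vesicular acetylcholine transporter Slc18a3 was higher, 4.70 to 11.0 CPM against 1.51 to 2.18 CPM (1.96, FDR 3.22e-07), while Chat, which makes acetylcholine, was at most 1.27 CPM in any library. Slc18a1 was higher too (1.12).

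Among the vesicular glutamate transporters Slc17a8 was lower (-0.56) and Slc17a7 higher (1.13, FDR 0.0454), the latter at 1.32 to 11.1 CPM. Neither approached Slc17a6 in level: per length Slc17a7 was at 1.74 and Slc17a8 at 0.528 CPM per kb in AgRP neurons. Of 14 GABA-A subunits 1 was called, Gabre, the epsilon subunit, at 86.8 to 171 CPM in AgRP and 42.1 to 74.6 CPM in POMC libraries (1.15, FDR 0.000314). The GABA neuron selector factors Dlx2 (-0.78) and Dlx6 (-0.56), Slc38a3 (-0.55) and Slc1a3, an astrocyte glutamate transporter that is also on the astrocyte list (-0.65), were lower. State by state, and with the 5 genes themselves counted, 3 of the 61 genes of the lists were called in fed libraries, 10 in fasted and 11 in leptin libraries, beside 3.21%, 13.3% and 11.1% of all genes tested. Slc18a2 (lower) and Slc18a3 (higher) were called in all 3 states. Genes called in the comparisons by state and not named above were Slc1a6, the glutamate transporter EAAT4 (log2 fold change -0.53 in fasted and -0.59 in leptin libraries), the GABA-A subunit Gabra3 (-0.50, fasted), the chloride exporter gene Slc12a5 (-0.56, leptin) and Dlx1 (-0.64, leptin).

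The genes most like each of the 5 were sought by Pearson correlation of log2 CPM over the 17 TRAP libraries among 9476 genes. These points share line, state and library set, so the values are descriptions. Slc32a1 was nearest to Ktn1 (r = 0.937), Glra2 (0.929) and Lrrtm3 (0.915), and Slc17a6 to Cdh8 (0.968), Chst8 (0.947) and Nell2 (0.945). Abat was nearest to Sesn3 (0.993), Scd2 (0.992) and Uhmk1 (0.989), Gad2 to Aak1 (0.967), Nrxn3 (0.960) and the row Zdhhc3.2 (0.948), and Gad1 to Mark1 (0.915), Cobl (0.894) and Ugp2 (0.871). Within the 11 AgRP libraries Abat kept the same 3 genes, and Slc17a6 was nearest to Mgat5b (0.977), Adcy8 (0.972) and Htr2c (0.967).

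Open chromatin separated AgRP-positive from AgRP-negative nuclei at the starts of the vesicular transporters. The peak over the Slc17a6 start (chr7:51621574-51622488, which holds the promoter printed above) had 15.4 and 13.5 CPM in AgRP-negative and 2.76 and 3.00 CPM in AgRP-positive libraries. It was lower in AgRP-positive nuclei by a log2 difference of -2.32 ± 0.29 (edgeR FDR 1.38e-13) and stayed called in all 8 alternatives. The peak over the Slc32a1 start (chr2:158610360-158611458) went the other way, with 14.3 and 18.5 CPM in AgRP-negative and 27.3 and 23.9 CPM in AgRP-positive libraries. It was higher by 0.64 ± 0.18 (FDR 0.00206), though without AgRP-negative replicate 1 the difference was 0.46 (FDR 0.115).

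The decarboxylase genes had the same direction as Slc32a1. Over the Gad2 start (chr2:22621904-22622855) the values were 18.2 and 17.3 CPM in AgRP-negative and 33.9 and 22.8 CPM in AgRP-positive libraries, higher by 0.67 ± 0.18. Without AgRP-positive replicate 1 this was 0.37 (FDR 0.197). Gad1 has several annotated starts, and no peak lay over the outermost one. The nearest peak to it, at 8.3 kb, had 3.57 and 7.23 CPM in AgRP-negative and 9.69 and 10.2 CPM in AgRP-positive libraries (0.87 ± 0.29, FDR 0.00829), a call lost with DESeq2 (FDR 0.0986) and without AgRP-negative replicate 1 (0.45, FDR 0.346). The peak over the start of shorter transcripts, 9.2 kb downstream of it, had 6.77 and 10.9 CPM in AgRP-negative and 15.1 CPM in each AgRP-positive library and was higher by 0.77 ± 0.23. The Abat start peak had 36.7 and 43.4 CPM in AgRP-negative and 27.6 and 31.5 CPM in AgRP-positive libraries, a difference of -0.44 that was under the fold needed for a call.

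Within the 50 kb windows, 19 of 36 peaks were called (52.8%), 12 higher and 7 lower in AgRP-positive nuclei, beside 39.6% of 66560 peaks tested (23.9% higher and 15.6% lower). By gene, 5 of 7 Gad1 peaks and 4 of 12 Slc32a1 peaks were higher and none lower, Gad2 had 2 higher and 2 lower of 6, Abat 1 higher and 2 lower of 8, and Slc17a6 3 lower of 3. The medians of the log2 differences were 0.84 for Gad1, 0.29 for Slc32a1, 0.46 for Gad2, -0.46 for Abat and -1.73 for Slc17a6, beside 0.00 for all peaks. Of all called peaks 60.5% were higher in AgRP-positive nuclei. Scaling by library size alone raised the median of all peaks to 0.16 and that share to 71.4%. At marker genes of AgRP neurons, 1 of 2 Agrp peaks, 3 of 3 Npy peaks and 3 of 5 Otp peaks were higher in AgRP-positive nuclei, with log2 differences up to 3.39, and no Pomc or Gfap peak (2 each) was called. No peak was listed within 5 kb of Mog or Cx3cr1, the oligodendrocyte and microglia genes checked, so the glial share of the AgRP-negative fraction was not measured there.

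Inside the gene bodies the Gad1 introns gave the clearest increases. The peak 15.6 kb after the Gad1 start had 3.08 and 2.72 CPM in AgRP-negative and 8.44 and 9.67 CPM in AgRP-positive libraries (1.64 ± 0.34). The peak 28.6 kb after it had 2.59 and 3.20 CPM against 8.09 and 8.59 CPM (1.52 ± 0.35). Both stayed called in all 8 alternatives, and neither pair of groups overlapped.

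An intronic peak 29.9 kb after the Gad2 start had 0.985 and 1.30 CPM in AgRP-negative and 4.62 and 4.17 CPM in AgRP-positive libraries (1.92 ± 0.53, not called without AgRP-negative replicate 1, FDR 0.0527). Upstream of Slc32a1, peaks at -21.7 kb (1.50) and -32.3 kb (1.59) were called, and neither call was firm. That at -21.7 kb was lost with DESeq2 (FDR 0.111) and without AgRP-negative replicate 1 (0.75, FDR 0.419). At -32.3 kb the values of 1.48 and 0.355 CPM in AgRP-negative and 4.36 and 1.25 CPM in AgRP-positive libraries overlapped, and 4 of 8 alternatives lost the call. In Slc17a6 the peak at 40.4 kb was lower by a log2 difference of -0.74 and that at 2.7 kb by -1.73, the latter from at most 3.20 CPM and lost in 4 of 8 alternatives. In Abat the intronic peaks at 10.6 kb (-0.90) and 27.6 kb (-1.04) were lower and the one at 25.9 kb (0.53) was higher. The call at 25.9 kb was lost with DESeq2 (FDR 0.112), without AgRP-negative replicate 1 (0.32, FDR 0.305) and without AgRP-positive replicate 1 (FDR 0.0781). That at 10.6 kb was lost without AgRP-negative replicate 2 (FDR 0.0933) or AgRP-positive replicate 1 (FDR 0.0557).

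**Figure D3:**
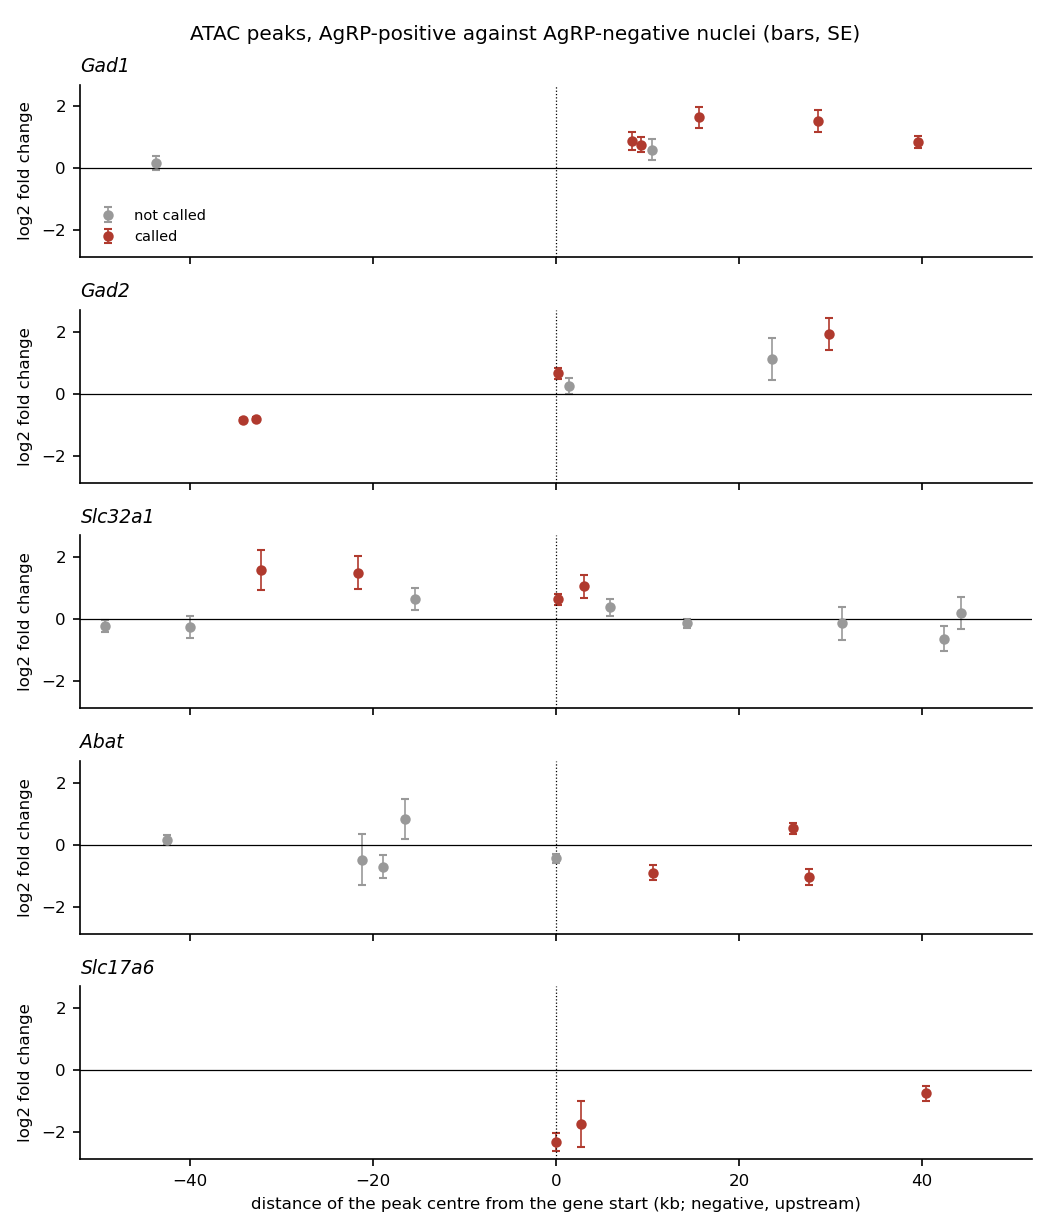
Log2 fold change of each ATAC peak, AgRP-positive against AgRP-negative nuclei, against the distance of its centre from the gene start in kb, with SE bars and called peaks marked. The Slc17a6 peaks all lie below 0, down to -2.32 at the start, and all 7 Gad1 peaks lie above 0.

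A pair of the Gad2 window's peaks are of another kind. At -34.3 and -32.9 kb, inside an intron of Myo3a, they were the most heavily counted peaks of these loci, holding together 1.28 to 2.23% of all counts in the AgRP-positive and AgRP-negative libraries and 0.0228 to 0.0536% in the libraries of the 3 states. Their sequence matched the mouse mitochondrial genome over their whole length at 98.0 to 98.9% identity, so reads from mitochondrial DNA and from this locus cannot be told apart. Both were called lower in AgRP-positive nuclei (-0.85 and -0.81), and they are the 2 lower peaks counted for Gad2.

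In fasted AgRP neurons the peaks at or nearest the gene starts did not move past the test without a block, while a few distal peaks moved by large amounts. With the replicate block the Gad1 peak at -0.7 kb was called (1.75, edgeR FDR 0.0407). That peak passed the filter only through fasted and leptin libraries, so its call and size carry no weight. The Slc32a1 start peak had 40.3 and 41.9 CPM in fed, 32.6 and 35.3 CPM in fasted and 29.5 and 31.5 CPM in leptin libraries (-0.28, edgeR FDR 0.248 for fasted against fed). The Gad2 start peak had 35.3 and 36.2 CPM in fed and 40.5 and 28.3 CPM in fasted libraries (-0.06). The Abat start peak and the Gad1 peak at 8.7 kb, over the start of shorter transcripts, differed by -0.20 and -0.19. The sparsely counted Gad1 peak at -0.7 kb, the nearest to the outermost start, had 0.755 and 0.293 CPM in fed, 1.36 and 1.70 CPM in fasted and 1.62 and 2.77 CPM in leptin libraries (1.71 ± 0.69, FDR 0.0705, for fasted against fed). The Slc17a6 start peak was at 0.340 to 1.10 CPM in the 6 libraries, under the filter, and was not tested. Per length it reached 1.24 to 4.01 CPM per kb, against 29.6 to 42.3 for Gad2, 24.5 to 34.9 for Slc32a1 and 35.7 to 49.7 for Abat.

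Apart from a sparsely counted Slc17a6 peak, the largest fasting increase lay upstream of Slc32a1. The peak at -32.3 kb (chr2:158578217-158578795, intergenic, centre printed above) had 2.52 and 4.31 CPM in fed, 23.3 and 23.1 CPM in fasted and 29.2 and 24.8 CPM in leptin libraries. The rise was 2.68 ± 0.31 on the log2 scale (edgeR FDR 1.70e-05) and stayed called in all alternatives. Fed libraries were apart from all 4 others, which lay close together.

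The intronic Gad2 peak 30.0 kb after the start (chr2:22651832-22652530) had 5.04 and 6.65 CPM in fed, 33.1 and 25.5 CPM in fasted and 29.5 and 23.6 CPM in leptin libraries, a rise of 2.28 ± 0.28 with fasting. Both this peak and the one upstream of Slc32a1 overlap peaks whose mean counts were higher in AgRP-positive than in AgRP-negative nuclei. In the opposite direction, the peak 44.2 kb after the Slc32a1 start had 9.32 and 10.2 CPM in fed, 2.33 and 2.27 CPM in fasted and 1.20 and 1.98 CPM in leptin libraries, a fall of 2.09 ± 0.33. The Slc17a6 peak at 40.6 kb fell by 1.72 ± 0.35, from 6.67 and 8.04 CPM to 2.78 and 1.77 CPM. These 3 calls also held in all alternatives.

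In all, 12 of 52 tested peaks were called for fasted against fed (23.1%), 8 higher and 4 lower, beside 27.0% of 102237 peaks (18.1% higher and 8.88% lower). The share near these genes was thus no higher than that of all peaks. Gad2 had 4 higher and 1 lower of 12, Slc32a1 1 and 1 of 16, Abat 1 and 1 of 11, Slc17a6 1 and 1 of 4, and Gad1 1 higher of 9. The other increases were Gad2 peaks at 17.6 kb (1.77), 45.7 kb (1.68) and 49.0 kb (1.48), the Gad1 peak at -14.8 kb (1.32), the Abat peak at -37.0 kb (2.27, at most 2.40 CPM) and the Slc17a6 peak at -36.7 kb (3.16, with a mean of 0.136 CPM in fed libraries). The other decreases were the Gad2 peak at 23.7 kb (-1.30) and the Abat peak at 10.5 kb (-1.49). The Slc17a6 peak at -36.7 kb and the Abat peak at -37.0 kb passed the filter only through fasted and leptin libraries. The calls and sizes of both carry no weight, though both are among the 8 counted as higher. Several of these calls were not firm when single libraries were left out. The Gad1 peak at -14.8 kb lost its call without fasted replicate 2 (FDR 0.131), fed replicate 1 (0.0917) or fed replicate 2 (0.0751), as did the Abat peak at -37.0 kb (FDR 0.157, 0.0749 and 0.138). The Slc17a6 peak at -36.7 kb lost its call without fed replicate 1 (FDR 0.0682) or fed replicate 2 (0.117), and the Abat peak at 10.5 kb without fasted replicate 2 (0.0812) or fed replicate 1 (0.0904). The Gad2 peak at 17.6 kb lost its call without fasted replicate 1 (FDR 0.0555) and that at 23.7 kb without fed replicate 1 (0.0894). Of the 8 that rose 5 held at least 1 AP-1 match in their central 300 bases, beside 14 of all 54 window peaks. The share among all peaks that rose with fasting is not given here. The RNA of the 5 genes did not move past the test, as described above, and a peak's target gene was not measured. The Slc32a1 peak at 44.2 kb and the Abat peak at -37.0 kb lie nearer to the starts of Ppp1r16b and Mettl22.

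**Figure D4:**
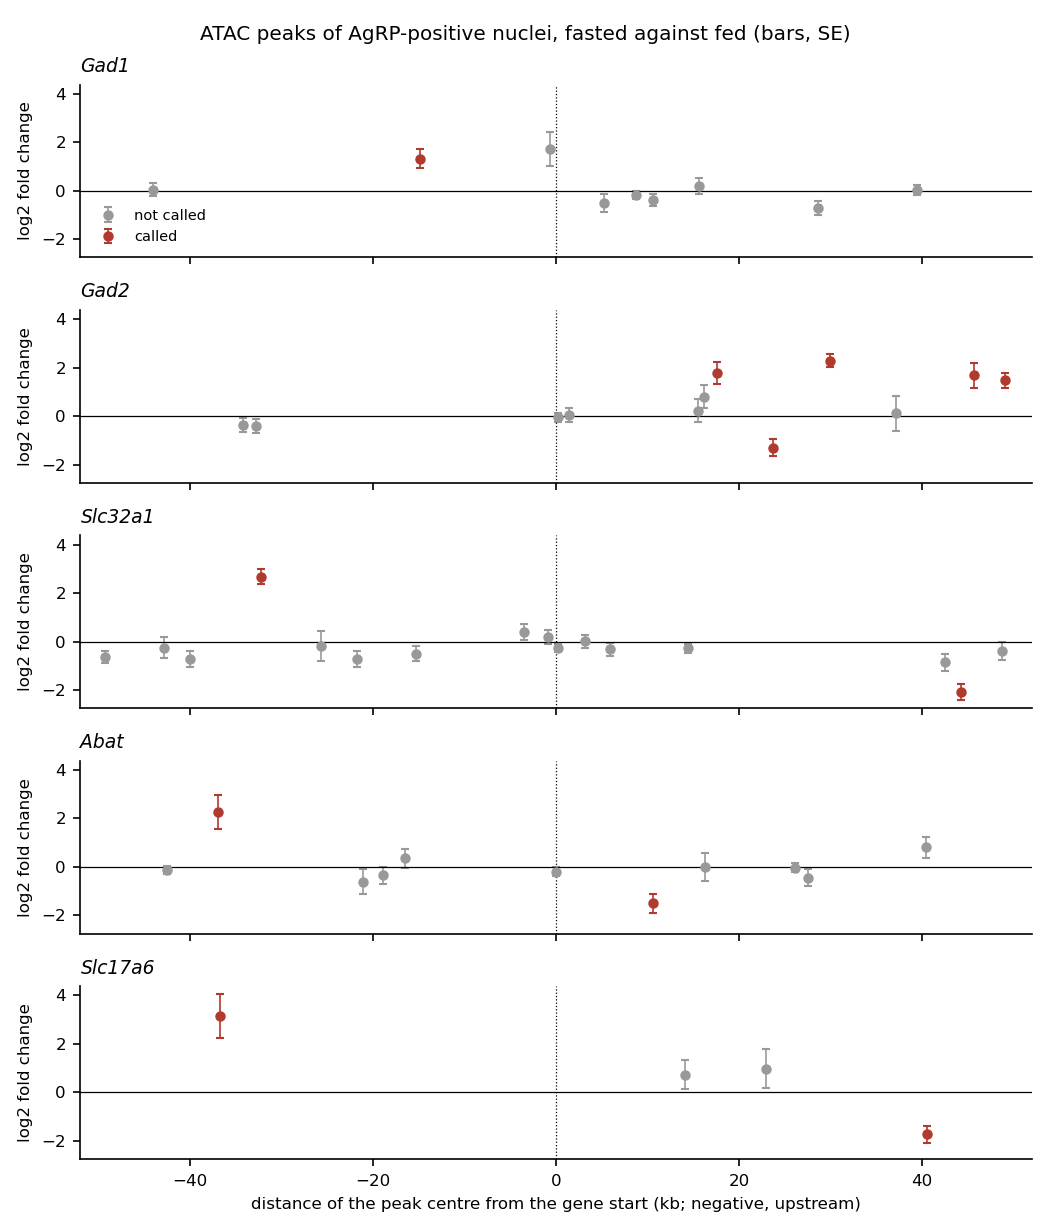
Log2 fold change of each tested ATAC peak in AgRP neurons, fasted against fed, against the distance of its centre from the gene start in kb, with SE bars and called peaks marked. Peaks over the starts of Slc32a1, Gad2 and Abat lie near 0. The Gad1 peak at -0.7 kb lies at 1.71 and was not called without a replicate block. It passed the filter on counts only through fasted and leptin libraries. Single distal peaks reach 2.68 (Slc32a1, -32.3 kb) and 2.28 (Gad2, 30.0 kb).

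Leptin given to fasted mice gave no called difference at these peaks without a replicate block. With the block 3 of the 52 were called, beside 5869 of all 102237 peaks, a similar share. None of the 52 passed for leptin against fasted by edgeR, where 3.08% of all peaks were called, and the log2 differences ran from -0.79 to 1.19. At or nearest the starts they were -0.16 (Slc32a1), -0.07 (Gad2), -0.08 (Abat) and 0.55 (Gad1, -0.7 kb). For leptin against fed 22 of 52 were called (42.3%, beside 36.8% of all peaks), 15 higher and 7 lower, beside 23.3% of all peaks higher and 13.4% lower. That comparison shares its fed libraries with fasted against fed. In it the Slc17a6 peak at -36.7 kb and the Gad1 peak at -0.7 kb passed the filter only through fasted and leptin libraries. So did the Abat peak at -37.0 kb. Their calls and sizes carry no weight, though they are among the 15 counted as higher. The start peaks of Slc32a1 (-0.43, FDR 0.0589), Gad2 (-0.13) and Abat (-0.27) were not called. The Slc32a1 peak at -32.3 kb was higher by 2.89 ± 0.30 and the one at 44.2 kb lower (-2.59), the Gad2 peak at 17.6 kb was higher by 2.23 and that at 30.0 kb by 2.13. The Gad2 peak at 23.7 kb (-1.78), the Slc32a1 peak at -49.3 kb (-1.42) and the Slc17a6 peak at 40.6 kb (-1.22) were lower. The Gad1 peaks at -0.7 kb (2.26) and -14.8 kb (1.81), the Abat peaks at -37.0 kb (2.22) and 40.4 kb (1.29) and the Slc17a6 peaks at -36.7 kb (3.61) and 22.9 kb (1.92) were higher, and the Abat peak at 10.5 kb (-1.67) was lower. The Slc17a6 peak at 22.9 kb was at 0.81 (FDR 0.462) without fed replicate 2 and lost its call with DESeq2 too (FDR 0.135). Calls of the Gad1 peak at -0.7 kb, the Abat peaks at -37.0, 10.5 and 40.4 kb and the Slc17a6 peak at 40.6 kb were also lost in at least 1 leave-out of a single library. With 2 libraries per state the 22 calls went down to 11 when leptin replicate 2 was left out.

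**Figure D5:**
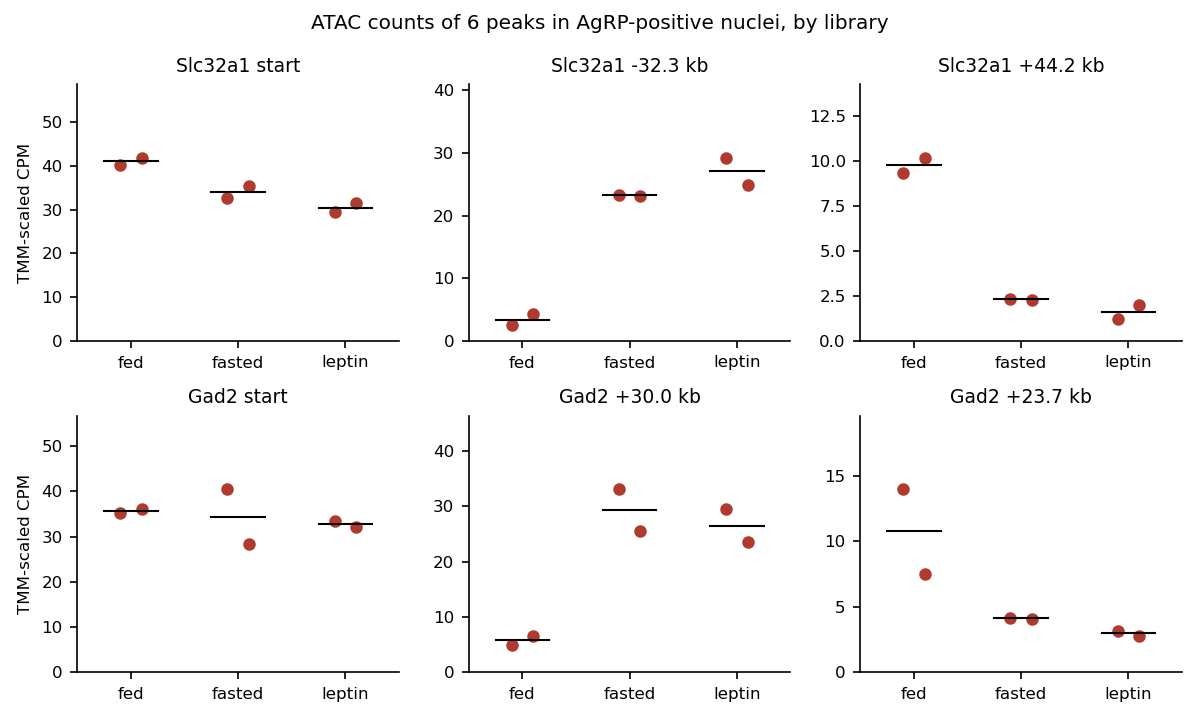
TMM-scaled CPM of 6 ATAC peaks in each AgRP neuron library by state, with 1 point per library and a bar at the mean. The distal Slc32a1 and Gad2 peaks separate fed from fasted and leptin libraries, whereas the start peaks overlap or differ by less (29.5 to 41.9 CPM for Slc32a1).

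The 2 peak tables described largely the same places. Among the 36 window peaks of AgRP-positive and AgRP-negative nuclei, 34 overlapped a window peak of the 3 states (94.4%), and among the 54 peaks of the 3 states 34 did so in turn (63.0%). Introns held 13 of 36 and 24 of 54 peaks, and intergenic sequence 12 and 17. CUT&RUN, which cuts chromatin beside an antibody-bound protein, listed AgRP neuron peaks of the boundary protein CTCF in every window, 5 at Gad1, 12 at Gad2, 4 at Slc32a1, 4 at Abat and 2 at Slc17a6, out of 51182. The IRF3 list (30387 peaks), which comes from AgRP neurons of the IRF3-2D model and so from overexpressed, constitutively active IRF3, held 3, 7, 1, 4 and 2, and 1 of them lay over the Abat start. These lists come from 1 sample each and were not tested. In the Gad2 window 8 of the 12 CTCF and 4 of the 7 IRF3 peaks lay in the 2 peaks that match the mitochondrial genome.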

How the data were processed

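TRAP RNA and ATAC libraries were grouped by their labels. For RNA, the authors used HISAT2 for alignment and featureCounts, with a modified GRCm38 annotation, for counting, and the RNA values used here are those raw counts as the authors deposited them, with a gene length in bases. ATAC reads were aligned to mm10 with Bowtie2, peaks were called with MACS2, and the authors deposited raw counts per peak in a merged peak set for each of the 2 tables. The deposited CTCF lists give a fold ratio over background per peak and the deposited IRF3 list gives a summed signal (SEACR). Tool versions are not given in the sources used here, nor is the strand setting, so Gad1 and its antisense gene Gad1os (0 to 16 counts per library, against 11183 to 30275 for Gad1) cannot be told apart. Log2 CPM tables that the authors deposited were not used. Whole-arcuate RNA and the IgG control were not analysed here.

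Counts were tested with edgeR 4.0.16 (R 4.3.3): TMM scaling, genes or peaks with a mean over 1 CPM, quasi-likelihood F tests and Benjamini-Hochberg FDR over all features tested. Calls required an FDR below 0.05 with a log2 fold change beyond 0.5 either way. AgRP fits used 11, POMC fits 6 and fits between neurons all 17 RNA libraries. Samples are separate pools of mice, except that AgRP-positive and AgRP-negative nuclei were sorted from shared pools, and p-values measure the spread between libraries. On simulated counts with 200 genes or peaks changed by 1 log2 unit, the procedure recovered 163 of 200 for AgRP fasted against fed (13401 genes), 56 for POMC fasted against fed (13412 genes), 59 for AgRP-positive against AgRP-negative nuclei (66560 peaks) and 17 for AgRP fasted against fed ATAC (102237 peaks).

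A peak belonged to a gene if it overlapped 50 kb on either side of the gene start in GENCODE vM21, and the peak over or nearest the start was named, with up to 2 called peaks of the largest increase and decrease per gene and comparison. Every one of the 5 genes was named in each comparison, with every called gene of the lists in the comparisons described, and the 3 genes most correlated with each member. The members, lists and some comparisons were chosen with earlier results of these data known. Same-numbered AgRP libraries deviated together from their group means (r = 0.587 to 0.853 over 10 pairs, against -0.691 to 0.695 for other numbers), so the numbers were taken to pair them. The alternatives were DESeq2 1.42.0, scaling by library size alone, no filter on low counts, a replicate block, only the libraries of 1 state, and leaving out each library. Leaving out the libraries that stood apart, averaging the states, and leaving out the peaks of mitochondrial sequence were added after the data had been seen. Taking each library number as 1 value for the ratio was added then too. Where leaving libraries out left a single one in a group, the spread came from the other groups. Sequences were read with pysam 0.24.0 from RefSeq's GRCm38.p6, and mitochondrial matches were found with blastn 2.17.0+. Promoters were matched for 4 of the 5 genes.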

Additional observations from a re-analysis of the deposited data

Results flagged for a closer look

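In 3 of 12 sets of values tested, the 5 genes and the log2 ratio of Slc32a1 to Slc17a6 each in fasted and in leptin AgRP libraries, 1 library lay far above the rest of its group by Dixon's criterion, which chance alone gives for about 5% of groups. All 3 were AgRP libraries numbered 4, the set described as standing apart in its summed astrocyte, oligodendrocyte and tanycyte marker levels. Gad2 stood at 1100 CPM in AgRP fasted replicate 4, against 726 to 769 CPM in the other fasted libraries. Abat stood at 1467 CPM in the same library, against 549 to 611 CPM, and at 1391 CPM in AgRP leptin replicate 4, against 610 to 627 CPM. The fed group has 3 libraries and was not tested in this way, but its replicate 4 was also the highest for both genes (1040 and 1370 CPM). No value of Gad1, Slc32a1 or Slc17a6 stood out by the same criterion.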

How the results depend on the processing

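Of 1161 alternative values of single genes and peaks, 1089 stayed on their side of the threshold, 57 lost a call and 15 gained one. Of the 1089, 1004 kept their sign and 85, all uncalled, changed it. No called value changed sign. The causes were not tested, except that leaving out libraries leaves fewer samples. Slc32a1 (higher) and Slc17a6 (lower) between AgRP and POMC neurons over the 3 states held throughout. So did the Slc17a6 start peak between AgRP-positive and AgRP-negative nuclei. For fasted against fed the distal Slc32a1 and 30.0 kb Gad2 peaks held throughout. Without the libraries that stood apart Slc32a1 rose from 0.71 to 1.06 over the 3 states, Abat gained a call and Gad2 changed sign. The log2 ratio of Slc32a1 to Slc17a6 differed by 1.34 with each library number as 1 value, where p could not fall below 0.067.

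Of the 5 genes, 1 was called between the neurons in fasted libraries, 2 with DESeq2 and 0 with libraries of that state alone. Up to 2 were called when single AgRP libraries were left out. In leptin libraries it was 1, 0 with that state alone, and 0 to 1 without single AgRP libraries. Over all genes, calls between the neurons went from 1791 (fasted) to 1001 with that state alone and 1031 to 2600 leaving out single libraries, from 431 (fed) to 196 to 458, and from 1497 (leptin) to 936 by library size alone, 637 with that state alone and 821 to 2208.

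Within AgRP RNA the replicate block raised calls from 521 to 930 (fasted against fed), 245 to 390 (leptin against fasted) and 735 to 1148 (leptin against fed). Library size alone lowered them to 238, 146 and 329. Leaving out single libraries gave 276 to 679, 170 to 253 and 420 to 868. POMC calls of 0 became 3, 8 and 44 with the replicate block and 3, 10 and 7 with DESeq2. POMC same-numbered libraries deviated together (r = 0.779 to 0.810), but with 2 per state the other numbers mirror this (-0.810 to -0.779). With fewer than 3 pairs per comparison the main POMC fits used no block, though the POMC libraries numbered 2 stood apart in every state. AgRP libraries numbered 4 and POMC libraries numbered 2 also deviated together (r = 0.600 to 0.748 over 9 pairs). Differences between the fasting effects went from 22 to 166 (DESeq2), 6 (library size alone), 836 (replicate block within line), 41 (without the libraries that stood apart) and 0 to 25 leaving out single libraries. Those between the leptin effects went from 11 to 39, 1, 102, 3 and 0 to 6, and to 2 with no filter. The block changed no call of the 5 genes, and among the named peaks it added the Gad1 peak at -0.7 kb for fasted against fed (1.75, FDR 0.0407). That peak passed the filter only through fasted and leptin libraries, so its call carries no weight.

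For window peaks, AgRP-positive against AgRP-negative calls went from 19 to 11 with DESeq2, 17 without the peaks of mitochondrial sequence and 10 to 18 leaving out single libraries. Those for fasted against fed went from 12 to 6 to 11, those for leptin against fed from 22 to 11 to 16, and those for leptin against fasted from 0 to 3 with the block. Over all peaks the leave-out ranges were 16793 to 22676 (main 26337), 16694 to 20297 (27587), 24546 to 28694 (37617) and 639 to 3229 (3146, which became 5869 with the block and 1779 with DESeq2). Same-numbered ATAC libraries did not deviate together beyond r = 0.193.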
